A study of Mus musculus with 6 samples.

Results

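The 10 genes described here, of the 22040 listed in the deposited table, form the aldosterone-sensitive sodium control of the distal nephron. They are Scnn1a, Scnn1b and Scnn1g (the alpha, beta and gamma subunits of the epithelial sodium channel ENaC), Nr3c2, Sgk1 and Nedd4l (the mineralocorticoid receptor, a kinase and a ubiquitin ligase that set the channel's abundance), and Wnk1, Wnk4, Stk39 and Klhl3 (the WNK kinases, their target kinase SPAK and the adaptor that marks WNK kinases for degradation). Each was found by its exact symbol in the table, where each symbol had a single row. All 10 passed the filter on low counts and were tested. RNA-seq was done on renal cortex of wild-type C57BL/6 mice. The injured group (IR24h, 3 libraries) was taken 24 h after blood flow returned to kidneys whose pedicles had been clipped on both sides for 30 min, a model of acute kidney injury. The sham group had 3 libraries, which the labels call sham while giving them the same surgical text, so what their surgery was is not stated. Neither the sex nor the age of the mice is given, nor whether each library came from its own mouse. The p-values therefore judge the group difference against the variability between libraries, which may not be that between mice.

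Aldosterone acts in the late distal convoluted tubule, the connecting tubule and the collecting duct, where it binds the mineralocorticoid receptor and raises transcription of SGK1. SGK1 phosphorylates NEDD4-2, the product of Nedd4l, which otherwise ubiquitinates ENaC and removes it from the apical membrane. In the distal convoluted tubule, WNK kinases phosphorylate SPAK, which activates the sodium-chloride cotransporter NCC, while KLHL3 joins a cullin ligase that degrades WNK kinases. Mutations in WNK1, WNK4 or KLHL3 cause familial hyperkalaemic hypertension in humans, and gain-of-function mutations of ENaC subunits cause Liddle syndrome.

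The IR24h libraries held 12877237 to 15998975 counts over the genes used and the sham libraries 14339985 to 17061844. Transcripts of the mitochondrial genome took 68.9, 26.2 and 49.2% of counts in IR24h libraries 1, 2 and 3 and 13.1 to 14.2% in sham libraries. IR24h library 2 stood apart from the other IR24h libraries. Its log2 levels correlated across genes at 0.812 and 0.829 with those of IR24h libraries 1 and 3 and at 0.835 to 0.844 with those of the sham libraries. It also held 313 counts of the adipocyte gene Adipoq, against 0 and 3 in IR24h libraries 1 and 3 and 0 in each sham library. Results below are therefore also given without that library where it matters.

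The genes called as changed were Sgk1, Stk39 and Klhl3, and their promoters are shown so that the steroid-responsive gene can be read beside the others. The sequences are RefSeq promoter windows (GRCm38.p6), which run from 250 bases before to 50 bases after a transcription start, and 8 of the 10 genes have at least 1 window. The palindrome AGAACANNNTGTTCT, the classical element bound by the glucocorticoid and mineralocorticoid receptors, was searched for. It is its own reverse complement, so both strands are covered, and it contains its one arm AGAACA, which was searched on both strands as well. The palindrome occurred in 3 of 32851 RefSeq promoter windows (0.00913%), and 1 of these belongs to Sgk1. Sgk1 has 6 such windows, and the palindrome lies in the one at chr10:21993640-21993939 (plus strand), 189 bases before the start of that window's transcript and 965 bases before the last of the 6 annotated starts. It spans chr10:21993701-21993715 and is in capitals. The arm AGAACA was in 19.0% of all windows, and in 3 of the 13 windows of these genes, all 3 at Sgk1 starts. The windows of Klhl3 (chr13:58113598-58113897, minus strand) and Stk39 (chr2:68471932-68472231, minus strand) hold neither. GC bases make up 52.3% and 80.0% of them, against 46.3% in the printed Sgk1 window and 45.0 to 69.7% over the 6 Sgk1 windows. A match of letters is not a binding site, and the gene-level counts do not say which start was used.
Sgk1: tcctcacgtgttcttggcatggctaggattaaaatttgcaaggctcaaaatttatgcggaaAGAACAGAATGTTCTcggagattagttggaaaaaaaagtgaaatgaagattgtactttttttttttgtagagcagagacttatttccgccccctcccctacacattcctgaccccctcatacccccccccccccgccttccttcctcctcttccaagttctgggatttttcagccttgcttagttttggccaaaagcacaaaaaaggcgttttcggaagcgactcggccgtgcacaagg
Klhl3: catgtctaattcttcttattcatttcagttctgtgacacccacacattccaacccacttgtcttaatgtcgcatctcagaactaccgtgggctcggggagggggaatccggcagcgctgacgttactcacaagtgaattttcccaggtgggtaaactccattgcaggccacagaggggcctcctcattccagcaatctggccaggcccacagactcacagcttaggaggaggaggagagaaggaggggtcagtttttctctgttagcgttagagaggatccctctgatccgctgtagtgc
Stk39: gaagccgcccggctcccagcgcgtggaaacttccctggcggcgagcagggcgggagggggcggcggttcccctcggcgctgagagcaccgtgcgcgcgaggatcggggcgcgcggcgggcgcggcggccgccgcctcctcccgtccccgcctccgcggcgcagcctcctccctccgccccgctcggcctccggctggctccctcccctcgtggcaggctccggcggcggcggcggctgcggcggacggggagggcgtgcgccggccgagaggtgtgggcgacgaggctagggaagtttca

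Cortex after ischemia/reperfusion had less Klhl3 and Sgk1 RNA and more Stk39 RNA than sham cortex. Klhl3 was 3.48-fold lower, Sgk1 2.99-fold lower and Stk39 1.96-fold higher. Thus 2 of the 10 genes fell, 1 rose and 7 were not called at an adjusted p under 0.05, where 7.62% of the 13609 genes tested fell, 8.65% rose and 16.3% were called in either direction, 1177 higher and 1037 lower (edgeR's quasi-likelihood test, Benjamini-Hochberg adjustment over all genes tested). An unadjusted p under 0.05 was reached by 7 of the 10, against 34.1% of all genes. The median log2 fold change was −0.95 over the 10 genes and 0.05 over all genes tested. All 3 IR24h libraries lay below all sham libraries for 6 genes and above them for 2, against 21.7% and 19.9% of all genes. Without TMM factors 398 of all genes were called higher and 611 lower (7.41% in all), and of the 10 Klhl3 alone was called. Counts depended on the libraries and the tool. Without IR24h library 2 there were 7 calls of 10 (5 lower, 2 higher), where 48.3% of all genes were called, and DESeq2 called 6 of 10 (4 lower, 2 higher), where it called 27.8% of all genes. Without sham library 2 none of the 10 was called by edgeR, where 3.31% of all genes were called. An unadjusted p under 0.05 was reached in that fit by 4 of the 10 and by 3189 of all 13854 genes tested. Klhl3 alone was called without sham library 1, sham library 3 or IR24h library 3, where 3.73%, 3.51% and 11.3% of all genes were called. In bulk cortex, fewer cells of a type and less RNA per cell cannot be told apart.

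**Figure D1:**
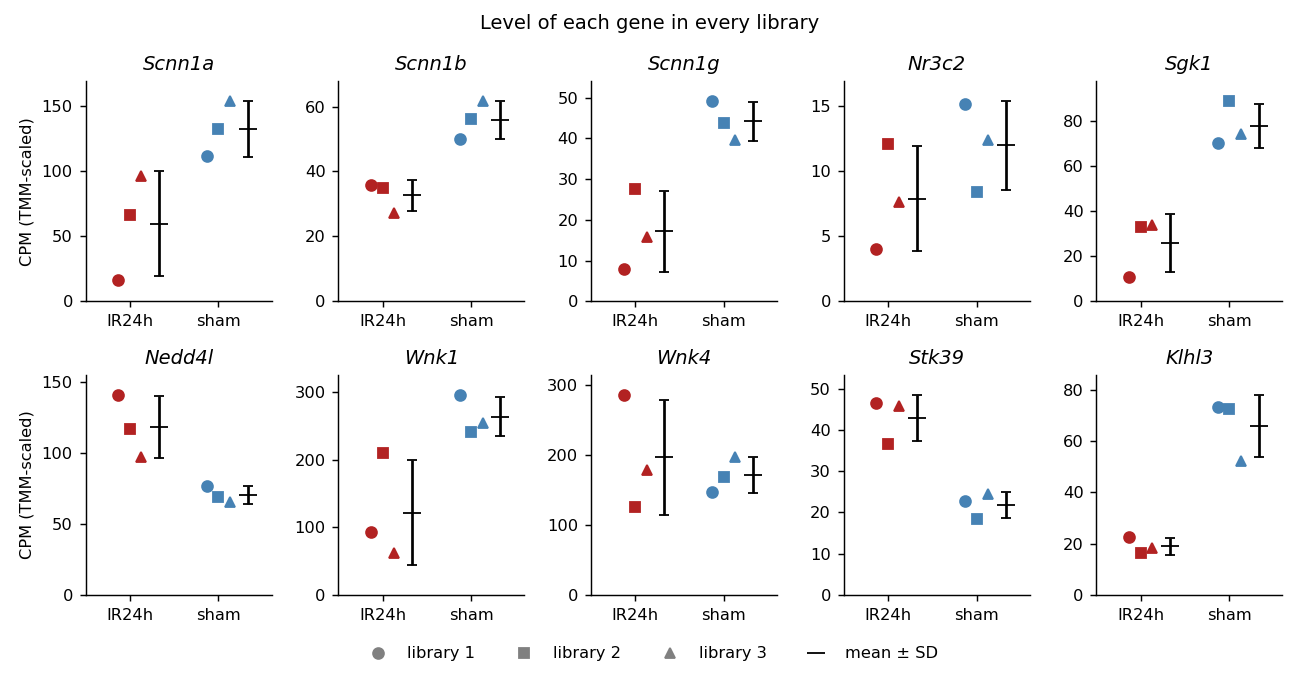
Level of each of the 10 genes in every library, in CPM (counts per 1e6, with TMM scaling) on a linear axis from 0, with IR24h left of sham. Symbols mark libraries 1 to 3, and bars give the mean ± SD (n = 3). Klhl3 lay between 16.3 and 22.6 CPM in IR24h, below the sham values of 52.1 to 73.3 CPM, while the Wnk4 and Nr3c2 values of the groups overlapped.

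The 3 ENaC subunit genes had lower values in every IR24h library than in any sham library, but none was called. CPM are counts per 1e6 of a library size corrected with TMM factors (trimmed mean of M-values). Scnn1a (ENSMUSG00000030340; GRCm38 chromosome 6, 125320659 to 125344943), whose alpha subunit is needed for a conducting channel, had 16.3, 66.2 and 96.5 CPM in IR24h libraries 1, 2 and 3 and 112, 133 and 154 CPM in sham libraries 1, 2 and 3. The IR24h values were spread 5.91-fold between the lowest and the highest, a wider spread than in 89.3% of all genes tested, against 1.38-fold in sham. The log2 fold change, −1.15 ± 0.57 (SE), had an adjusted p of 0.195 (edgeR), and Scnn1a was not called in any of the 14 alternatives.

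Scnn1b (ENSMUSG00000030873; chromosome 7, 121865038 to 121918514), the beta subunit, was the steadiest of the 3 in the injured cortex. It had 35.9, 35.0 and 27.1 CPM in IR24h and 49.9, 56.0 and 61.6 CPM in sham. The log2 fold change was −0.77 ± 0.24 (adjusted p = 0.0667, edgeR). Scnn1g (ENSMUSG00000000216; chromosome 7, 121734479 to 121768475), the gamma subunit, ends 96563 bases before Scnn1b on the same strand. It had 7.95, 27.7 and 15.9 CPM in IR24h and 49.2, 43.7 and 39.7 CPM in sham, with IR24h library 2 nearest to sham (−1.35 ± 0.43, adjusted p = 0.0715, edgeR). Without IR24h library 2, Scnn1b and Scnn1g were called as lower (log2 fold changes −0.83 and −1.88, adjusted p = 0.0164 and 0.00407, edgeR). DESeq2 called both on all 6 libraries (adjusted p = 0.0191 for each). For Scnn1g, IR24h library 2 is the highest IR24h library, so removing it by itself lowers the IR24h mean. In the fit without it 48.3% of all genes were called.

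Upstream of the channel, the kinase fell and its receptor was not called. Nr3c2 (ENSMUSG00000031618; chromosome 8, 76899442 to 77245012), the mineralocorticoid receptor, was the least abundant of the 10 genes, with 28, 236 and 87 counts in IR24h and 265, 174 and 230 counts in sham. These counts correspond to 3.98, 12.1 and 7.60 CPM in IR24h and 15.1, 8.37 and 12.4 CPM in sham, so the groups overlapped (log2 fold change −0.58 ± 0.44, adjusted p = 0.385, edgeR). Of its exon bases, 3.82% overlap the antisense gene Gm10649, whose reads cannot be told apart if the counting ignored strand.

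Sgk1 (ENSMUSG00000019970; chromosome 10, 21882184 to 21999903), which carries the palindrome printed above, had 77, 643 and 390 counts in IR24h and 1232, 1852 and 1377 counts in sham. As CPM these were 10.9, 32.9 and 34.1 in IR24h and 70.3, 89.0 and 74.3 in sham. The groups did not overlap, and the mean of IR24h was 33.3% of the sham mean. The log2 fold change was −1.58 ± 0.43 (adjusted p = 0.0463, edgeR). The call was lost without sham library 1, 2 or 3 (adjusted p = 0.121, 0.156 and 0.137), without IR24h library 3 (0.0686) and where CPM rested on total counts without TMM factors (0.108). In these 5 fits the log2 fold change ran between −1.89 and −1.48.

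Nedd4l (ENSMUSG00000024589; chromosome 18, 64887705 to 65217828), the ligase that SGK1 restrains, lay higher in all IR24h libraries than in any sham library. It had 141, 117 and 97.5 CPM in IR24h and 77.2, 69.2 and 65.3 CPM in sham (log2 fold change 0.75 ± 0.25, adjusted p = 0.0772, edgeR). It was called as higher without IR24h library 2 (adjusted p = 0.0235) and by DESeq2 (0.0187), and not in the other 12 alternatives. Nedd4l is the gene among the 10 whose length, as implied by the deposited counts and FPKM, differed between the groups. The implied length in the IR24h columns differed from that in the sham columns by −0.64 on the log2 scale, while for the other 9 genes it differed by less than 0.01. Such a difference was found in 13.1% of the 12806 genes that could be compared. The part of it in the Nedd4l values was not tested.

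In the WNK branch neither kinase gene was called, Stk39 rose and Klhl3 fell. Wnk1 (ENSMUSG00000045962; chromosome 6, 119923969 to 120038672) had 93.0, 209 and 62.1 CPM in IR24h and 296, 241 and 255 CPM in sham. The kidney makes a long Wnk1 transcript and a short one without the kinase domain, and the counts sum both. The log2 fold change was −1.12 ± 0.45 (adjusted p = 0.127, edgeR), and without IR24h library 2, the one nearest to sham, it was −1.77 (adjusted p = 0.00174). Removing that library by itself lowers the IR24h mean. Wnk4 (ENSMUSG00000035112; chromosome 11, 101260567 to 101277409), the WNK kinase of the distal tubule, had 287, 126 and 179 CPM in IR24h and 147, 169 and 198 CPM in sham. The sham values lay inside the range of the IR24h values. Its log2 fold change was 0.20 ± 0.35 (adjusted p = 0.713, edgeR), and the sign turned in the fit with no TMM factors (−0.41) and in that lacking IR24h library 1 (−0.17). Antisense Gm11615 overlaps 7.38% of the exon bases of Wnk4.

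Stk39 (ENSMUSG00000027030; chromosome 2, 68210445 to 68472268), which encodes SPAK, was the only one of the 10 called as higher. It had 327, 715 and 524 counts in IR24h and 400, 382 and 452 counts in sham, which gave 46.4, 36.5 and 45.8 CPM in IR24h and 22.8, 18.4 and 24.4 CPM in sham. The lowest IR24h library thus stood above the highest sham library, with means of 42.9 ± 5.54 and 21.9 ± 3.12 CPM (SD, n = 3 each). The log2 fold change was 0.97 ± 0.25 (adjusted p = 0.0368, edgeR). This rise depended on the scaling, since on total counts with no TMM factors the log2 fold change was 0.48 (adjusted p = 0.463), where the median of all genes tested was −0.39. The call was also lost without any 1 library other than IR24h library 2 (adjusted p = 0.0706 to 0.190), without a count filter (0.0537) and with the replicate block (0.0721).

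Klhl3 (ENSMUSG00000014164; chromosome 13, 58000228 to 58113592), the adaptor that brings WNK kinases to the CUL3 ligase, showed the lowest log2 fold change of the 10 genes. It had 159, 318 and 208 counts in IR24h and 1284, 1508 and 965 counts in sham. The CPM values were 22.6, 16.3 and 18.2 in IR24h and 73.3, 72.5 and 52.1 in sham, and IR24h libraries differed among themselves by 1.39-fold. Its log2 fold change was −1.80 ± 0.27 (adjusted p = 0.00697, edgeR), which ranked 1562 among the 13609 genes by size. It was called in 13 of 14 alternatives, the exception being the fit without sham library 2 (−1.73, adjusted p = 0.0507). Unlike those of Wnk1 and Scnn1g, its value in IR24h library 2 lay no nearer to sham than those in IR24h libraries 1 and 3.

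**Figure D2:**
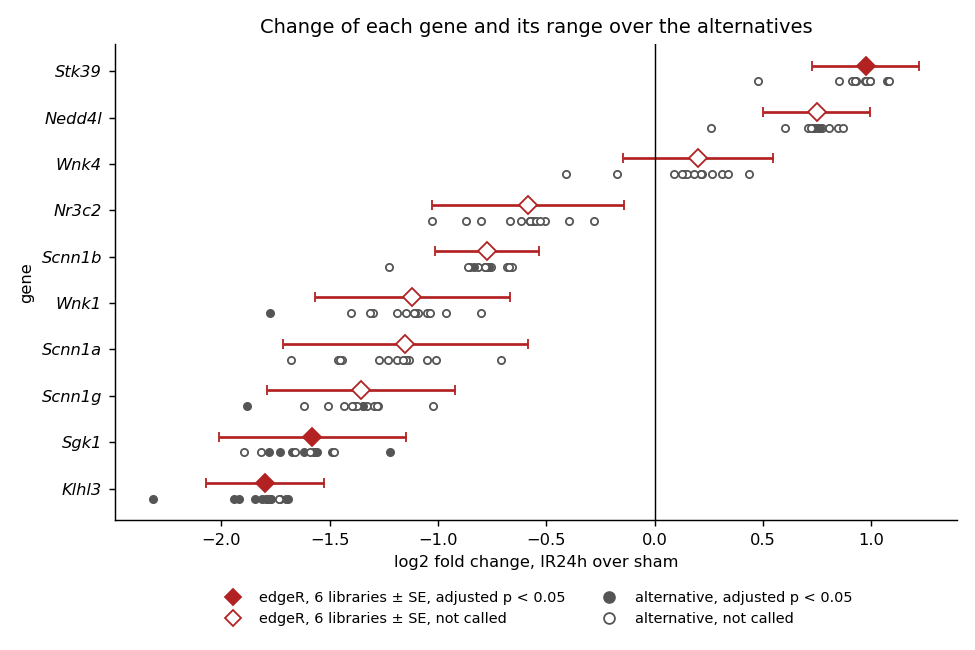
Log2 fold change of IR24h over sham for the 10 genes (diamonds ± SE, edgeR on 6 libraries) with the values under 14 alternatives below each (circles). Filled symbols have an adjusted p under 0.05. Klhl3 is filled in all but 1 alternative, while the circles of Wnk4 lie on both sides of 0.

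Ratios between genes within a library do not depend on how libraries are scaled, and 8 such ratios were compared. The log2 ratio of Klhl3 to Wnk4 counts was −3.66, −2.95 and −3.30 in IR24h and −1.01, −1.22 and −1.93 in sham. The ratio was lower in every IR24h library, by a mean of −1.92 on the log2 scale. Sgk1 to Nedd4l gave −3.68, −1.83 and −1.52 in IR24h and −0.13, 0.36 and 0.19 in sham, a mean difference of −2.48, with the differing implied length of Nedd4l in it. Sgk1 to Nr3c2 gave 1.44, 1.44 and 2.16 in IR24h and 2.21, 3.41 and 2.58 in sham, a mean difference of −1.05. Each of these 3 ratios had p = 0.1 in a 2-sided exact permutation test, the smallest value that 3 against 3 libraries allow, and an adjusted p of 0.267 over the 8 pairs, so none could pass the threshold.

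The other 5 ratios overlapped between the groups. Wnk4 to Wnk1 had 1.62, −0.74 and 1.53 in IR24h and −1.01, −0.51 and −0.36 in sham (exact permutation p = 0.3, 0.4 adjusted). IR24h libraries 1 and 3 thus held more Wnk4 than Wnk1 counts, and IR24h library 2, like each sham library, more Wnk1 than Wnk4 counts. The ratios of ENaC subunits varied more among IR24h than among sham libraries. Scnn1b to Scnn1a was 1.13, −0.92 and −1.83 in IR24h and between −1.32 and −1.16 in sham (exact permutation p = 0.7), so IR24h library 1 had more beta than alpha subunit counts. Scnn1g to Scnn1a ran between −2.60 and −1.03 in IR24h and between −1.96 and −1.18 in sham (exact permutation p = 0.9). Scnn1g to Scnn1b ran between −2.17 and −0.34 in IR24h and between −0.63 and −0.02 in sham (exact permutation p = 0.3). Stk39 was also set against Oxsr1, which encodes OSR1, the other kinase that WNK kinases activate. That log2 ratio was −0.25, −1.09 and 0.16 in IR24h and −1.07, −1.32 and −0.93 in sham (exact permutation p = 0.3).

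**Figure D3:**
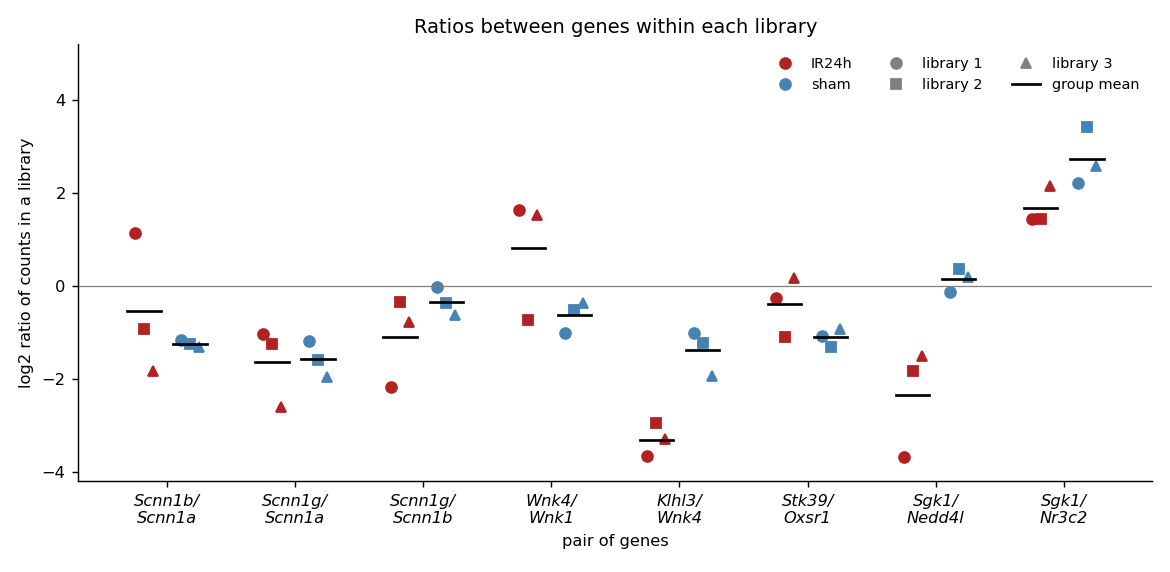
Log2 ratio of the counts of gene pairs within each library, with IR24h (red) left of sham (blue), symbols for libraries 1 to 3 and lines at group means. For Klhl3/Wnk4, Sgk1/Nedd4l and Sgk1/Nr3c2 the groups do not overlap, while Scnn1b/Scnn1a spans −1.83 to 1.13 in IR24h.

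To compare levels between genes, the deposited FPKM values were used, which are per kilobase of gene length. Wnk4 had the highest level in both groups, with a mean FPKM of 24.0 ± 0.240 in IR24h and 29.3 ± 3.37 in sham (SD, n = 3 each), and no other gene's values overlapped with it. Nr3c2 had the lowest, at 0.560 ± 0.457 FPKM in IR24h and 0.948 ± 0.276 FPKM in sham. Between them in sham stood Scnn1g, Scnn1b and Scnn1a at means of 16.4, 15.7 and 13.2 FPKM, whose neighbours in this order overlapped, then Klhl3, Sgk1 (8.42) and Wnk1 (7.17), which likewise overlapped each with the next, and below them Stk39 (3.08) and Nedd4l (2.38). In IR24h the 8 genes between Wnk4 and Nr3c2 ran in the order Scnn1b, Scnn1g, Scnn1a, Nedd4l, Stk39, Wnk1, Sgk1 and Klhl3, at mean FPKM levels between 7.26 and 2.18, and each overlapped with the next. The implied length of Nedd4l was shorter in the IR24h columns, and FPKM divides by length. The part of this in its FPKM and in its place in the order was not tested. Klhl3 was thus the fifth highest in sham and the ninth in IR24h. FPKM is not scaled by TMM, and on that scale the rise of Stk39 was not clear of the sham range. Its FPKM values were 3.25, 5.72 and 5.04 in IR24h and 3.31, 2.64 and 3.30 in sham. Wnk4, whose CPM values overlapped between the groups, lay lower in every IR24h library than in any sham library on the FPKM scale. It had 24.3, 23.9 and 23.9 FPKM in IR24h and 25.9, 29.5 and 32.6 FPKM in sham.

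Of 51 other genes of the pathway, listed by role, 50 were tested, and 4 fell, 1 rose and 45 were not called, with a median log2 fold change of −0.36. A call share of 5 in 50 lies below the 16.3% of all genes. Without IR24h library 2, 28 of the 51 were called (20 lower, 8 higher), where 48.3% of all genes were. Without any 1 of the sham libraries none of the 51 was called (edgeR), where 3.31 to 3.73% of all genes were called. An unadjusted p under 0.05 was reached by 9 or 10 of the 51 in these fits. Over all genes it was reached by 3265 of 13941, 3189 of 13854 and 3385 of 13887 without sham library 1, 2 and 3.

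Among 9 genes of the hormone gate and the steroid response, 2 fell and 7 were not called. Klf9, a transcription factor gene induced by glucocorticoids, had 18.6, 52.4 and 8.48 CPM in IR24h and 223, 254 and 208 CPM in sham (log2 fold change −3.10 ± 0.63, adjusted p = 0.0185, edgeR). Its implied length also differed between the groups, by −0.78 on the log2 scale. Usp2, which encodes a deubiquitinase whose short form is induced by aldosterone in mouse and acts on ENaC, had 60.1, 24.7 and 57.4 CPM in IR24h and 126, 148 and 166 CPM in sham (−1.63 ± 0.38, adjusted p = 0.0269). The groups of both genes were clear of each other. Klf9 and Usp2 were each called in 10 of 14 alternatives, and neither was called without any 1 of the sham libraries. Hsd11b2, which inactivates glucocorticoids and so keeps the mineralocorticoid receptor free for aldosterone, had 107 ± 76.5 CPM in IR24h and 194 ± 30.2 CPM in sham (SD, n = 3 each; −0.86, adjusted p = 0.249). Hsd11b2 was called as lower in 1 of 14 alternatives, the fit without IR24h library 3 (−1.63, adjusted p = 0.0259, edgeR). That is its highest IR24h library, so its removal by itself lowers the IR24h mean.

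Among proteases that act on ENaC, Prss8 fell and St14 rose. Of 7 protease and inhibitor genes 1 rose, 1 fell and 5 were not called. Prss8, which encodes prostasin, a protease that activates the channel through its gamma subunit, had 128, 131 and 159 CPM in IR24h and 392, 229 and 465 CPM in sham (−1.38 ± 0.33, adjusted p = 0.0290, edgeR). St14, which encodes matriptase, a membrane protease that works together with prostasin, had 209, 109 and 163 CPM in IR24h and 51.3, 49.7 and 58.7 CPM in sham (1.59 ± 0.30, adjusted p = 0.0150, edgeR). No IR24h library overlapped with sham for either protease. Prss8 was called in 8 of 14 alternatives and St14 in 10 of 14. On total counts with no TMM factors the log2 fold changes were −1.82 (adjusted p = 0.0604, edgeR) and 1.02 (0.131). Both calls were also lost without any 1 of the sham libraries. That of Prss8 was lost as well without IR24h library 1 or 3 (adjusted p = 0.0755 and 0.0574, edgeR). Spint2, an inhibitor of such proteases, had 743, 205 and 942 CPM in IR24h and 201, 186 and 222 CPM in sham (adjusted p = 0.0720), so IR24h library 2 was within the sham range. Spint2 was called as higher without that library (2.05, adjusted p = 0.000552, edgeR) and by DESeq2 (0.0122). IR24h library 2 is its lowest IR24h library, so removing that library by itself raises the IR24h mean.

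Of 14 salt transporters and channels 1 fell and 13 were not called. Slc26a4, which encodes the chloride/bicarbonate exchanger pendrin of intercalated cells, had 11.6, 41.7 and 15.4 CPM in IR24h and 116, 129 and 114 CPM in sham (−2.38 ± 0.49, adjusted p = 0.0191, edgeR). Slc26a4 was called in 9 of 14 alternatives. The call was lost with no TMM factors (adjusted p = 0.0651, edgeR), without IR24h library 3 (0.0611) and without any 1 of the sham libraries (0.0710 to 0.0787). Slc12a3 encodes NCC, on which SPAK acts, and is named here after its values were seen. It had 132, 743 and 130 CPM in IR24h and 1284, 1443 and 1185 CPM in sham, with the groups clear of each other (−1.96 ± 0.71, adjusted p = 0.0961, edgeR). It was called as lower without IR24h library 2 (−3.32, adjusted p = 0.000213, edgeR), by DESeq2 (0.0177), by limma-voom (0.0488) and with the replicate block (0.0363), and not in the other 10 alternatives. IR24h library 2 is its highest IR24h library, so removing that library by itself lowers the IR24h mean. In the fit without it 48.3% of all genes were called.

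The 3 remaining role lists held no gene called by edgeR, with 1 in each at an unadjusted p under 0.05, and DESeq2 called Ywhae, Mtor and Tsc22d1 there. They were the ubiquitin and 14-3-3 partners of ENaC (4 genes), the SGK1-activating kinases (5) and the WNK network (11 tested). Ywhae, a 14-3-3 protein gene, had 428 ± 49.8 CPM in IR24h and 246 ± 15.6 CPM in sham (adjusted p = 0.0630), and was called as higher without IR24h library 2 (adjusted p = 0.0129, edgeR). Mtor, part of the complex that phosphorylates SGK1, had 135 ± 54.6 CPM in IR24h and 264 ± 3.88 CPM in sham (adjusted p = 0.0849), and was called as lower without IR24h library 2 (−1.33, adjusted p = 0.00245, edgeR). For Mtor that is the highest IR24h library, so removing it by itself lowers the IR24h mean. Tsc22d1, whose long protein forms bind WNK pathway kinases, had 134, 684 and 565 CPM in IR24h and 147, 148 and 141 CPM in sham (adjusted p = 0.0770), so IR24h library 1 lay below sham and the other IR24h libraries above it. Tsc22d1 was called as higher in 2 of 14 alternatives, by DESeq2 (adjusted p = 0.0139) and without IR24h library 1 (2.10, adjusted p = 0.00838, edgeR). That is its lowest IR24h library, so its removal by itself raises the IR24h mean.

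**Figure D4:**
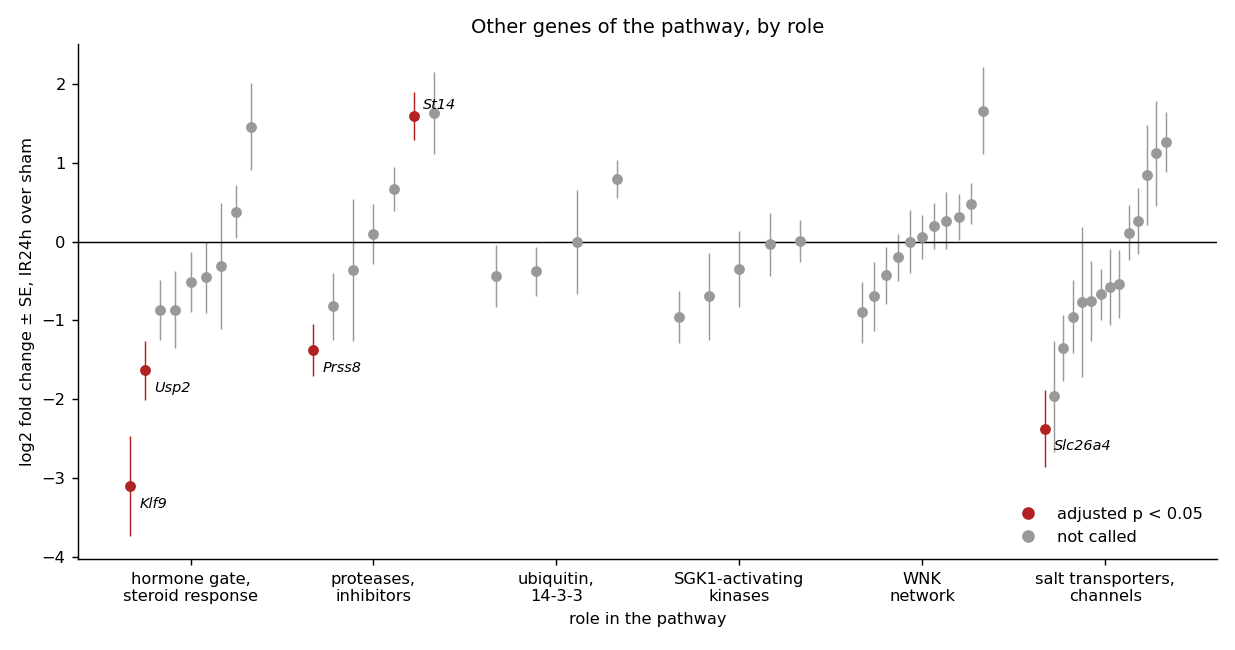
Log2 fold change (± SE) of IR24h over sham for the 50 tested genes of the pathway outside the 10, in 6 role lists and sorted within each. Red points have an adjusted p under 0.05 (Klf9, Usp2, Prss8 and Slc26a4 lower, St14 higher) and grey points were not called.

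The levels of nephron segment markers differed by segment. Of all genes tested, 8.65% were called as higher and 7.62% as lower. The summed level of 4 distal convoluted tubule markers was 159, 767 and 163 CPM in IR24h and 1365, 1531 and 1273 CPM in sham, with 2 of 4 markers called as lower and none at 0 in any library. Most of that sum is Slc12a3, and the other 3 markers summed to 27.0, 24.1 and 33.6 CPM in IR24h and 81.7, 88.6 and 88.4 CPM in sham. Connecting tubule markers summed to 1096 to 1728 CPM in IR24h and 2386 to 2808 CPM in sham, with 2 of 5 lower, and most of the sum was Klk1, which was not called. The 2 lower were Calb1 and Slc8a1, and the implied length of Slc8a1 differed between the groups by −3.03 on the log2 scale. Principal cell markers summed to 323, 156 and 801 CPM in IR24h and 405, 483 and 512 CPM in sham, with 2 of 8 higher and 1 lower. The 2 higher were Aqp4 and Elf5, and the implied length of Aqp4 differed by −0.59 on the log2 scale. The 1 lower was Aqp3 (−1.87, adjusted p = 0.0239, edgeR). The part of the segment markers in the values of the 10 genes was not tested. Intercalated cell markers (2 of 7 lower) summed to 157 to 248 CPM in IR24h and 335 to 353 CPM in sham. Thick ascending limb markers (0 of 5 called by edgeR, 1 at an unadjusted p under 0.05) summed to 1564 to 5024 CPM in IR24h and 1833 to 2563 CPM in sham. Proximal tubule markers (5 of 9 lower) summed to 7903 to 15383 CPM in IR24h and 20082 to 24754 CPM in sham. Most of the IR24h sum is Kap, which was not called (−0.10), and the other 8 summed to 1045 to 2823 CPM in IR24h and 11273 to 12335 CPM in sham. The implied length of Slc22a8, 1 of the 5 lower, differed by −0.73 on the log2 scale. The part of such length differences in the marker values was not tested.

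Markers of other cells and states were also counted. Injured tubule markers (5 of 5 higher) summed to 1092 to 3040 CPM in IR24h and 6.90 to 12.9 CPM in sham. Leukocyte markers summed to 80.9 to 189 CPM in IR24h and 39.7 to 44.8 CPM in sham, with 5 of 8 tested genes higher (Itgam has 2 gene IDs, both higher), and Cd3e, Cd79a and S100a8 were at 0 in at least 1 library. Endothelial markers (1 of 5 lower) summed to 62.3 to 258 CPM in IR24h and 188 to 220 CPM in sham. Adipocyte markers summed to 73.6 to 115 CPM in IR24h and 13.3 to 23.5 CPM in sham, with Fabp4 the one gene tested and called as higher. The other 4 adipocyte markers summed to 6.82, 49.7 and 0.961 CPM in IR24h libraries 1, 2 and 3 and to at most 0.108 CPM in sham, with Adipoq, Plin1 and Retn at 0 in every sham library. Urothelial markers summed to at most 8.30 CPM in IR24h and 3.88 CPM in sham. Of the adrenal cortex markers, Cyp11a1, Cyp11b1 and Cyp11b2, the last being aldosterone synthase, had 0 counts in all 6 libraries. Whether such cells bear on the sodium control genes was not tested.

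For each of the 10 genes the gene with the most similar course over the 6 libraries was sought, as the smallest distance between log2 CPM values centred on the sham mean. Nedd4l was nearest to Fermt2 (distance 0.12), Scnn1b to Klhl32 (0.13), Stk39 to Stom (0.17), Wnk4 to Fbxl12 (0.19) and Scnn1g to Nphs1 (0.24). Wnk1 was nearest to Ctbs (0.26), Nr3c2 to Rgn (0.30), Sgk1 to Yars2 (0.34), Scnn1a to Lrp10 (0.38) and Klhl3 to Sfrp1 (0.40). None of these neighbours belongs to the pathway lists. These lists hold only 50 of the 13609 genes tested, so nothing is drawn from this. Sfrp1, which encodes a secreted WNT antagonist, had 36.1, 34.4 and 29.9 CPM in IR24h and 127, 122 and 108 CPM in sham (−1.83 ± 0.23, adjusted p = 0.00392, edgeR).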

How the data were processed

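Per the labels, total RNA of renal cortex was sequenced after a TruSeq preparation. Per the submitters' processing notes, CASAVA 1.8 and TopHat2 2.0.6 were used, and mm10 and GRCh38 are named as builds. The gene identifiers are those of mouse. For the read counter, annotation and strand setting, nothing is given in the sources used here. The authors deposited raw read counts per gene and FPKM values. The counts were tested, and the FPKM values served for levels between genes and for the implied gene length. Of 22040 genes, 83 without sham values were left out. Genes were filtered by edgeR's filterByExpr (13609 kept), scaled by TMM and tested with edgeR 4.0.16 (quasi-likelihood, 2-sided, R 4.3.3), with p-values adjusted over all genes tested and called under 0.05. The SE is the log2 fold change over the square root of the quasi-likelihood F. The script was tested on simulated data. These were not built with a library that stood apart or with a rise of mitochondrial transcripts, so the test does not cover those features. Ratios of counts used a pseudocount of 0.5 and an exact permutation test over 20 assignments. Coordinates are from GENCODE M21 on GRCm38, which is the mm10 assembly, and promoters from RefSeq. Alternatives were other scalings, DESeq2 1.42.0, limma-voom (limma 3.58.1), no count filter, the replicate number as a block, and each library left out. Named pathway genes were those called and, in each role list, the most abundant one not called. One gene that this rule names is not reported here. The 10 genes, the 6 role lists and the 12 marker lists were chosen with earlier results of these data known. Precision is limited by 3 libraries a group.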

Additional observations from a re-analysis of the deposited data

How the results depend on the processing

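With library size as the only scaling, 1009 of all genes, 1 of the 10 sodium control genes (Klhl3) and 2 of the other pathway genes were called, against 2214, 3 and 5 with TMM. DESeq2 called 3768, 6 and 13. Leaving out 1 library gave 458 to 6679, 0 to 7 and 0 to 28 calls, with the lowest counts of the 10 genes and of all genes without sham 2 and the highest without IR24h 2. The cause was not tested, although fits without a library rest on fewer samples. With the replicate block 1657, 2 and 6 were called. The deviations of same-numbered libraries from their group means correlated at −0.10, 0.10 and 0.20, the last being the highest of all pairs. IR24h 1 correlated best with sham 3 (0.12) and IR24h 2 with sham 1 (0.16). The labels do not state that the numbers pair the libraries, so they were not taken to, and these correlations do not exclude it. Wnk4 turned to −0.41 on the log2 scale with library size alone and ran from −0.17 to 0.43 with 1 library left out. The log2 ratio of Scnn1b to Scnn1a differed between the groups by 0.70 and by −0.13 to 1.35 with 1 library left out. That of Scnn1g to Scnn1a differed by −0.05 and by −0.35 to 0.43. Over the 10 genes and 14 alternatives, 117 values kept their direction and their side of the threshold, 14 lost a call, 7 gained one and 2, both of Wnk4, changed sign. No call of a ratio was possible at this number of libraries, and counts of Nr3c2 (28 in IR24h 1) and the lower total outside the mitochondrial genome in IR24h limit precision.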

Other observations

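Kcnj16, which encodes a potassium channel subunit of the distal nephron, was singled out after its values were seen. It had 951, 1126 and 2559 counts in IR24h and 10351, 1440 and 909 counts in sham, or 135, 57.6 and 224 CPM in IR24h and 591, 69.2 and 49.0 CPM in sham. Sham library 1 alone thus held 591 CPM, and the sham spread of 12.1-fold between the highest and the lowest library exceeded the 3.89-fold spread in IR24h (adjusted p = 0.604, edgeR). Prss8 had its lowest sham value in sham library 2, at 229 CPM, against 392 and 465 CPM in sham libraries 1 and 3.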
